A study of Mus musculus with 16 samples.

Results

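Drc1, Neb, Coro2a, Myo6 and Fsd1l are 5 genes, grouped here as cytoskeletal and ciliary. They stood out among the genes higher after venetoclax in conventional CD4+ T cells (Tcon). They were selected on their Tcon log2 change of venetoclax over vehicle, as 5 symbols, and all 5 were found in the table of 11171 Tcon genes and in the table of 11067 regulatory T cell (Treg) genes. The study asked how a drug that inhibits the survival protein BCL-2 changes T cells. Its 16 libraries hold RNA of sorted CD4+ cells, with 4 labelled biological replicates in each of 4 groups: FOXP3- Tcon on venetoclax, FOXP3- Tcon on vehicle, FOXP3+ Treg on venetoclax and FOXP3+ Treg on vehicle. Venetoclax was given at 50 mg/kg, and both arms were treated for 14 days. All mice were FOXP3-IRES-GFP reporters (strain B6.Cg-Foxp3tm2Tch/J, genotype WT), in which cells that express Foxp3 are green, and the cells came from spleen and lymph node. Age is not given in the labels used here, nor is it said whether a library pools several mice.

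Drc1 and Neb are best known from other cell types than lymphocytes. Drc1 is a subunit of the nexin-dynein regulatory complex, which ties neighbouring microtubule doublets of motile cilia and sperm tails together and governs their bending. Neb encodes nebulin, a giant protein that lies along the actin filaments of skeletal muscle. Coro2a is a coronin, one of a family of actin-binding WD-repeat proteins, and is also found with the NCoR corepressor in the nucleus. Myo6 is the myosin that walks towards the minus end of actin filaments and serves in endocytosis and in the hair cells of the ear. Fsd1l is named for its fibronectin type III and SPRY domains. Lymphocytes carry neither motile cilia nor sarcomeres, while actin, myosins and parts of the ciliary transport machinery are at work in their migration and synapses.

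The 5 genes lie apart in the genome (spans from RefSeq, GRCm38.p6, the assembly of mm10; exons merged over GENCODE transcripts). Drc1 lies on the plus strand of chromosome 5 from 30281335 to 30366695, with 20 merged exons. Neb lies on the minus strand of chromosome 2 from 52136640 to 52338798, with 166 merged exons. Coro2a lies on the minus strand of chromosome 4 from 46536937 to 46601929, Fsd1l on the plus strand of chromosome 4 from 53631383 to 53707009, and Myo6 on the plus strand of chromosome 9 from 80164976 to 80311729. Coro2a shares 329 exonic bases, or 5.09% of its own, with Gm16731 on the opposite strand, and Neb shares 45 bases with the antisense gene Gm13522. Neither of these is listed in the tables, and whether the counting used strand is not stated in the labels, so their reads cannot be told apart in those stretches.

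The RefSeq promoter table held windows for 4 of the 5 genes, each running from 250 bases before to 50 bases after an annotated start. Drc1 and Fsd1l are shown because both hold the letters GGCAAC (or GTTGCC on the other strand), a half-site of the X-box that RFX factors bind in promoters of ciliary genes. The full X-box was not searched for. The capitals mark that half-site, in sequence read 5′ to 3′ on the plus strand of chr5:30281143-30281442 for Drc1 and of chr4:53631174-53631473 for Fsd1l.
Drc1: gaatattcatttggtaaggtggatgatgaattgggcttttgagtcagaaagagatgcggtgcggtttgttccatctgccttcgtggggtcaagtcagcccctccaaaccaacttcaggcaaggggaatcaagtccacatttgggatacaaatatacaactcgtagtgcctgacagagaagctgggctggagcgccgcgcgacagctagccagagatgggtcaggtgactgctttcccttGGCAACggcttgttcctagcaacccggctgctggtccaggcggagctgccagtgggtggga
Fsd1l: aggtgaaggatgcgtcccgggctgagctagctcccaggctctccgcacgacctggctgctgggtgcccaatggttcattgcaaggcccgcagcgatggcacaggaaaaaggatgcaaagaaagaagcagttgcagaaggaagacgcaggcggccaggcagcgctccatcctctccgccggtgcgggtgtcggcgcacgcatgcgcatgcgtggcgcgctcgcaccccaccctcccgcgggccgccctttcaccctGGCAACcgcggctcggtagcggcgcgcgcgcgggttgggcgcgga
The first base of the half-site lies at -11 from the Drc1 start and, counting the start as base 1, at base 6 of Fsd1l. Fsd1l has another window, not shown, from a start further along, and from that start the same half-site lies at -42. The half-site was in 12.5% of all 32851 windows of the table, and the windows of Coro2a and Myo6 did not hold it. The AP-1 letters TGANTCA stood in the Drc1 window, at -211, against 7.81% of all windows. The GC box GGGCGG (or CCGCCC) stood 7 times in the Myo6 window, 5 times in the first Coro2a window and not in the Drc1 window, against 35.7% of all windows with at least 1 match. It stood 1 time in the Fsd1l window shown, 2 times in the other Fsd1l window and not in the other Coro2a window. The cell cycle element CHR (TTTGAA or TTCAAA) stood in none of these windows, against 17.9% of all. These matches describe letters, and binding was not measured.

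The values are read counts that the authors divided by 1 size factor per library, called normalized counts here. The 8 Tcon libraries held between 22982210 and 24960570 recovered reads each, and the 8 Treg libraries between 21335006 and 25027038. Foxp3 followed the sort, with 898 to 920.3 CPM (counts per 1e6 reads in genes) in Treg on venetoclax and 747 to 899 CPM in Treg on vehicle. In Tcon it was at 29.8 to 31.9 CPM on venetoclax and 27.3 to 32.4 CPM on vehicle. Libraries also stood apart from others of their group. The Y-linked gene Ddx3y had 1468, 6674, 3050.4 and 0.988 normalized counts in Tcon replicates 1 to 4 on venetoclax, against 0, 5664, 0 and 0 on vehicle, and the same replicate numbers of Treg showed the same order. Ddx3y was thus at high or intermediate levels in more venetoclax than vehicle libraries, so mouse sex is in part mixed with treatment. Sex and treatment cannot be fully told apart here, and whether venetoclax replicates 1 and 3 pool both sexes was not tested. Tcon replicate 3 differed most from its group in both arms. The labels do not say that replicates are separate mice beyond calling them biological, so p-values measure the spread between these libraries.

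In Tcon, all 5 genes were higher on venetoclax. Drc1 was 18.9-fold and Neb 8.63-fold higher, Coro2a was 4.39-fold and Myo6 3.38-fold higher, and Fsd1l was higher from few reads. Every venetoclax library stood above every vehicle library for all 5, a pattern found in 8.78% of the 11171 genes. The rise is what the genes were chosen for, so these values are a description without a test.

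**Figure D1:**
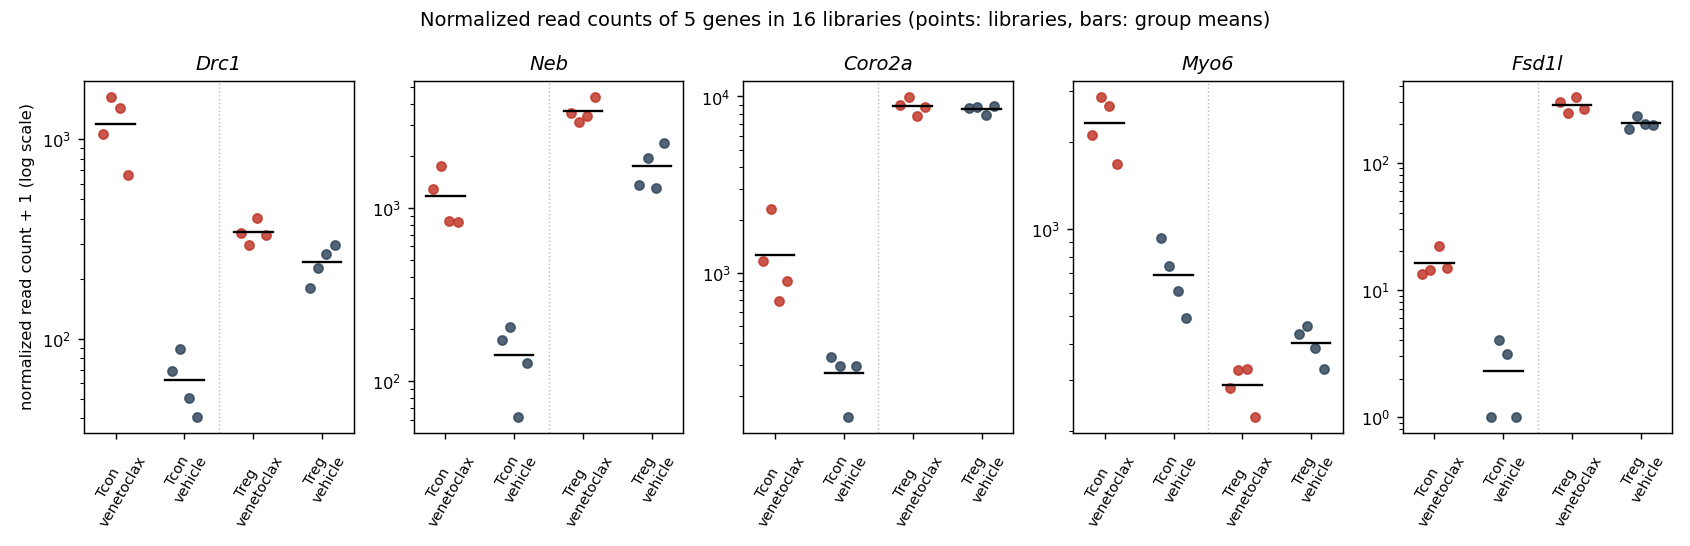
Normalized read count plus 1 (log scale) of the 5 genes in each of the 16 libraries, as points, with group means as bars; venetoclax libraries are red and vehicle libraries dark blue. In Tcon all red points lie above all dark points for each gene, while in Treg Neb and Fsd1l lie above, Myo6 lies below, and Drc1 and Coro2a overlap.

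Drc1 had 1058, 1626, 1426 and 659.7 normalized counts in venetoclax Tcon, against 67.9, 88.0, 49.6 and 39.7 in vehicle Tcon. The lowest venetoclax library was thus several times the highest vehicle library. Means were 1193 ± 426 on venetoclax and 61.3 ± 21.3 on vehicle (SD, n = 4 each). The fitted log2 change, between group means of log2(normalized count + 1), was 4.24, the rank 3 rise of the table. Fsd1l, the other gene with the X-box half-site, was scarce in Tcon. It had 12.3, 13.3, 21.2 and 13.8 normalized counts on venetoclax, against 0, 3.00, 2.11 and 0 on vehicle. These are 61 reads on venetoclax and 5 on vehicle over 4 libraries each, a ratio of 12.1 with an exact 95% interval of 4.89 to 38.5 that covers counting error only. The fitted log2 change of 3.07 depends on the pseudocount of 1 and is 1.69 with a pseudocount of 5.

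Neb had 1287, 1738, 834 and 824 normalized counts in venetoclax Tcon, against 171, 203, 61.2 and 126 in vehicle Tcon. Replicates 1 and 2 were the highest in each arm, and the groups did not overlap. The means were 1171 ± 436 on venetoclax and 140.3 ± 61.4 on vehicle (SD, n = 4 each), and the fitted log2 change was 3.11. Neb transcripts are very long (26582 exonic bases), so per length the gene remained low, at 1.87 RPKM (CPM per kilobase of exon) on venetoclax and 0.225 RPKM on vehicle, while Drc1 (2683 exonic bases) was at 18.8 RPKM on venetoclax and 0.969 RPKM on vehicle.

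Coro2a had 1168, 2283, 689 and 891 normalized counts in venetoclax Tcon, against 332, 295, 151 and 293 in vehicle Tcon. Replicate 2 on venetoclax was the highest and the groups did not overlap, with a coefficient of variation of 56.6%, the widest of the 5 genes on venetoclax. The log2 change was 2.14. Myo6, the most abundant of the 5 in vehicle Tcon by normalized count, had 2109, 2849, 2661 and 1672 on venetoclax, against 924, 739.7, 610.0 and 489.6 on vehicle. Its means were 2323 ± 536 on venetoclax and 691 ± 186 on vehicle (SD, n = 4 each). The fitted log2 change was 1.76, the smallest of the 5. Leaving out any 1 library kept the log2 change of Drc1 between 4.06 and 4.50, of Neb between 2.76 and 3.33, of Coro2a between 1.80 and 2.37, and of Myo6 between 1.60 and 1.91.

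In Treg, which played no part in the choice, the 5 genes did not move as one. Neb rose 2.11-fold, Drc1 1.43-fold and Fsd1l 1.39-fold, Myo6 fell, and Coro2a did not pass the test. With limma's moderated test on log2(normalized count + 1) and Benjamini-Hochberg adjustment over all genes, 4 of the 5 passed an adjusted p of 0.05, as did 19.6% of the 11067 genes. Of these, 3 rose, against 10.7% of all genes, and 1 fell, against 8.81% of all genes. With upper quartile scaling 4 of the 5 passed too, while calls over all genes shifted to 969 higher and 1348 lower, against 1189 higher and 975 lower with the deposited scaling.

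Neb had 3549, 3109.7, 3382 and 4360.1 normalized counts in venetoclax Treg, against 1363, 1939, 1293 and 2381 in vehicle Treg. All venetoclax libraries were above all vehicle libraries, as for 12% of all genes. The log2 change was 1.08 (SE 0.16, 95% interval 0.74 to 1.42, adjusted p = 0.000788 with limma), and it passed in all 20 alternative settings. In the authors' deposited table the log2 change of Neb in Treg is 0.93, with an adjusted p of 0.000245. The authors' deposited table has the same sign for the other 4 genes, including -0.39 for Myo6 (adjusted p = 0.00615).

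Fsd1l had 297, 246, 327 and 263 normalized counts in venetoclax Treg, against 184, 233, 199.6 and 197 in vehicle Treg. The groups did not overlap, and the log2 change was 0.47 (SE 0.11, adjusted p = 0.0102 with limma). Drc1 had 339, 295, 400.0 and 330.3 in venetoclax Treg, against 179, 225, 265 and 295 in vehicle Treg. Here the lowest venetoclax library lay less than 1 count under the highest vehicle library, and the log2 change was 0.52 (SE 0.14, adjusted p = 0.0217 with limma). The adjusted p of Drc1 was 0.0572 when vehicle replicate 1 was left out, 0.0588 for venetoclax replicate 1 and 0.0651 for venetoclax replicate 3, and with Ddx3y as a covariate it was 0.0512 for Drc1 and 0.0503 for Fsd1l.

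Myo6 had 280.3, 323, 326 and 223 normalized counts in venetoclax Treg, against 432, 461, 387 and 326 in vehicle Treg. Every venetoclax library was lower than every vehicle library, as for 10.7% of all genes, though the nearest pair lay less than 1 count apart. The log2 change was -0.48 (SE 0.13, 95% interval -0.77 to -0.20, adjusted p = 0.0212 with limma), opposite in sign to Tcon. It missed the threshold without vehicle replicate 1 (0.0622) or 2 (0.0528) and without venetoclax replicate 1 (0.0596) or 4 (0.0558).

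Coro2a had 9003, 9930.3, 7783 and 8677 normalized counts in venetoclax Treg, against 8615, 8686, 7874 and 8789.6 in vehicle Treg. The groups overlapped fully. The log2 change was 0.06 (SE 0.07, 95% interval -0.09 to 0.20, adjusted p = 0.604 with limma).

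**Figure D2:**
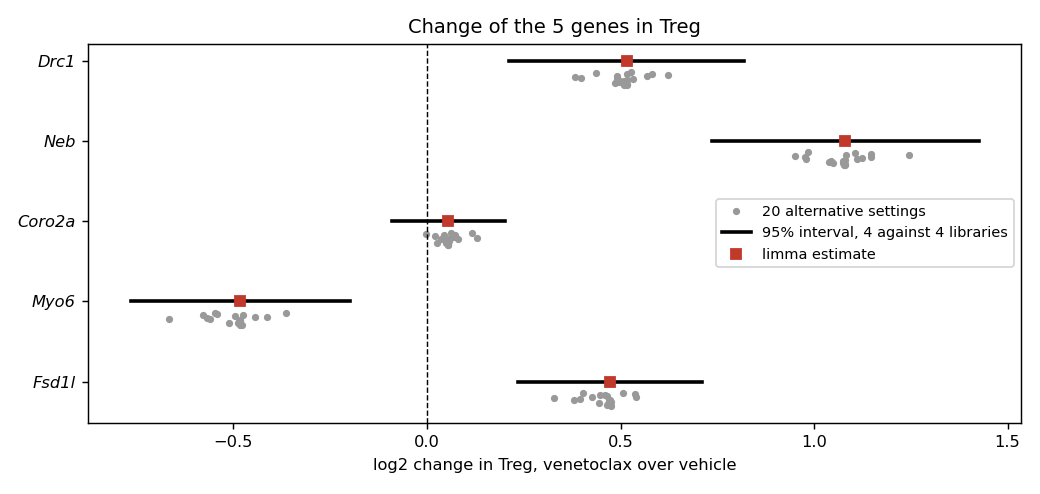
Log2 change of the 5 genes in Treg, venetoclax over vehicle (red squares), with 95% intervals (lines) and the estimates under 20 alternative settings (grey points below each line). Neb lies near 1.08 and Myo6 near -0.48, on opposite sides of the dashed line at 0, and Coro2a lies at 0.06.

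Set side by side as CPM, 4 of the 5 genes were higher in Treg than in Tcon on vehicle. On vehicle every Treg library was above every Tcon library for Drc1, Neb, Coro2a and Fsd1l, as for 24.5% of the 10774 genes in both tables. Coro2a had the widest gap of the well-read genes, 357.8 ± 21.0 CPM in Treg and 11.4 ± 3.65 CPM in Tcon (SD, n = 4 each), or 31.4-fold. Neb was at 73.5 ± 21.8 CPM in vehicle Treg and 5.99 ± 2.75 CPM in vehicle Tcon, and Drc1 at 10.1 ± 2.06 CPM in vehicle Treg and 2.60 ± 0.96 CPM in vehicle Tcon (SD, n = 4 each). Fsd1l was at 8.57 ± 0.93 CPM in vehicle Treg and at 0.0537 ± 0.0648 CPM in vehicle Tcon, where 2 of 4 libraries had no read. Myo6 ran the other way, with 16.9 ± 2.61 CPM in vehicle Treg and 29.2 ± 8.20 CPM in vehicle Tcon, every Treg library being lower, as for 12% of the genes.

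On venetoclax the Drc1 order was reversed, at 14.5 ± 1.89 CPM in Treg and 50.5 ± 17.8 CPM in Tcon (SD, n = 4 each). Neb, Coro2a and Fsd1l were still above Tcon in every Treg library, as for 30.2% of genes, and Drc1 and Myo6 below, as for 18.3%. Against vehicle Treg, venetoclax Tcon reached 498% of the Drc1 level and 582% of the Myo6 level, but 67.7% for Neb, 15.0% for Coro2a and 7.48% for Fsd1l. Per length, Coro2a in Treg was the most abundant transcript of the 5, at 58.3 RPKM on venetoclax and 55.4 RPKM on vehicle. The tables were normalized separately and the Tcon libraries chose the genes, so these levels were not tested.

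Genes that work with the 5 were called about as often as genes at large in Tcon. Outside a list of mitosis and replication genes, the related lists held 166 measured genes, of which 5 rose and 5 fell by limma's adjusted p in Tcon. Over all genes 3.92% rose and 2.99% fell, or 6.91% in both directions, and the median log2 change of the related genes was 0.02, against 0.00 over all genes. With the replicate number as a block, which compares Tcon libraries of the same number, 13 of the 166 rose and 9 fell, against 8.92% and 7.9% of all genes. The largest rise among these 166 was that of Tnni3, the cardiac inhibitory troponin, with a log2 change of 1.91, 8.66 ± 2.18 normalized counts on venetoclax and 1.75 ± 1.48 on vehicle (SD, n = 4 each, adjusted p = 0.0305 with limma, up to 0.0887 with 1 library left out). In Treg 166 related genes were measured too, not all the same ones, of which 15 (9.04%) rose and 9 (5.42%) fell, against 10.7% and 8.81% of all genes.

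Of the partners of Drc1, the nexin-dynein regulatory complex had 5 of 11 listed genes measured in Tcon, with a median log2 change of -0.41. None passed limma's adjusted p, 1 had an unadjusted p under 0.05, and edgeR and DESeq2 called none. Of 27 measured genes of the motile axoneme, 1 fell (1 rose and 2 fell with the block), the dynein light chain Dnal4 (log2 change -0.54, adjusted p = 0.0143 with limma). Of 35 measured genes of intraflagellar transport and the BBSome, which carry cargo in every cilium, 2 rose and 2 fell. Dync2h1, the heavy chain of the retrograde transport motor, rose (534 ± 62.8 on venetoclax and 353 ± 40.5 on vehicle, SD, n = 4 each, adjusted p = 0.0125 with limma), and Ift46 fell (log2 change -0.47, adjusted p = 0.014 with limma). Without venetoclax replicate 1 the adjusted p with limma was 0.0559 for Dnal4, 0.0558 for Dync2h1 and 0.0614 for Ift46.

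In Treg the same lists split both ways. Among 25 axonemal genes 2 rose and 2 fell, with Dnah7a, an inner arm dynein, at 945 ± 46.4 normalized counts on venetoclax and 678 ± 101 on vehicle (SD, n = 4 each, adjusted p = 0.00355 with limma). Among 36 transport genes 2 rose and 2 fell, Ift46 again lower (log2 change -0.51, adjusted p = 0.000423 with limma). The nexin-dynein list had 4 measured genes in Treg, of which limma, edgeR and DESeq2 called none and none had an unadjusted p under 0.05.

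Around Neb, none of 14 measured genes of the nebulin family and thin filament passed limma's adjusted p in Tcon, 2 had an unadjusted p under 0.05, and edgeR and DESeq2 called 1 each. With the block 1 fell, the smooth muscle actin Acta2 (log2 change -1.90, adjusted p = 0.0272 with limma). The sarcomere list had 7 of 30 genes measured in Tcon, with a median log2 change of -0.32, 1 rise and 1 fall. In Treg, the giant sarcomeric protein titin (Ttn) rose with Neb, at 724 ± 48.9 normalized counts on venetoclax and 361 ± 81.3 on vehicle (SD, n = 4 each, log2 change 1.03, adjusted p = 0.000226 with limma). In Tcon Ttn was at 50.2 ± 22.7 on venetoclax and 40.9 ± 7.50 on vehicle, and did not pass (adjusted p = 0.827 with limma). The actin cross-linker Actn1 fell in Treg (log2 change -0.32, adjusted p = 0.00167 with limma).

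Of 5 other coronins measured, 1 rose in each subset. In Tcon this was Coro1c, with 2706 ± 181 normalized counts on venetoclax and 1902 ± 117 on vehicle (SD, n = 4 each, log2 change 0.51, adjusted p = 0.00298 with limma). In Treg it was Coro2b, the closest relative of Coro2a, at 220.3 ± 38.0 on venetoclax and 141 ± 21.1 on vehicle (SD, n = 4 each, log2 change 0.64, adjusted p = 0.00787 with limma). For the NCoR complex, with 6 of 6 genes measured, limma, edgeR and DESeq2 called none in either subset, and none had an unadjusted p under 0.05.

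Beside Myo6, 18 other unconventional myosins were measured in Tcon. None passed by limma, edgeR or DESeq2, and 3 had an unadjusted p under 0.05. With the block 1 rose, Myo1c (log2 change 0.31, adjusted p = 0.0362 with limma). In Treg 5 of 17 rose and none fell, against 10.7% and 8.81% of all genes, with a median log2 change of 0.24, while Myo6 fell. Myo3b rose to 883 ± 67.6 in venetoclax Treg, against 538 ± 78.7 in vehicle Treg (SD, n = 4 each, adjusted p = 0.000399 with limma). Myo1e (log2 change 0.47) and Myo1f (0.63), both membrane-linked class I myosins, and the cargo motor Myo5a (0.29) rose as well, with adjusted p of 0.000632, 0.00275 and 0.00471 with limma. Of 7 measured adaptors that dock cargo on myosin VI, none passed by limma, edgeR or DESeq2 in Tcon, none with an unadjusted p under 0.05, and 1 fell in Treg, Gipc1 (log2 change -0.24, adjusted p = 0.0178 with limma, up to 0.0568 with 1 library left out).

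Non-muscle myosin II genes (5 measured) were not called by limma, edgeR or DESeq2 in either subset, with 0 in Tcon and 1 in Treg at an unadjusted p under 0.05. Relatives of Fsd1l with COS or FN3-SPRY domains were not called by limma in either subset, among 4 measured in Tcon and 5 in Treg. For them 1 in Tcon and 2 in Treg had an unadjusted p under 0.05, edgeR called none, and DESeq2 called 0 in Tcon and 1 in Treg. With the block 1 fell in Tcon, the microtubule-binding ubiquitin ligase Mid1 (log2 change -0.29, adjusted p = 0.034 with limma). Of 33 actin assembly genes measured in Tcon 1 rose and 1 fell, against 3.92% and 2.99% of all genes. With the replicate number as a block 7 of the 33 rose and 1 fell, against 8.92% and 7.9% of all genes. The riser without the block was the actin-capping protein Capg, at 1331 ± 125 on venetoclax and 848 ± 43.5 on vehicle (SD, n = 4 each, log2 change 0.65, adjusted p = 0.00142 with limma). In Treg 4 of 34 rose and 2 fell, against 10.7% and 8.81% of all genes.

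**Figure D3:**
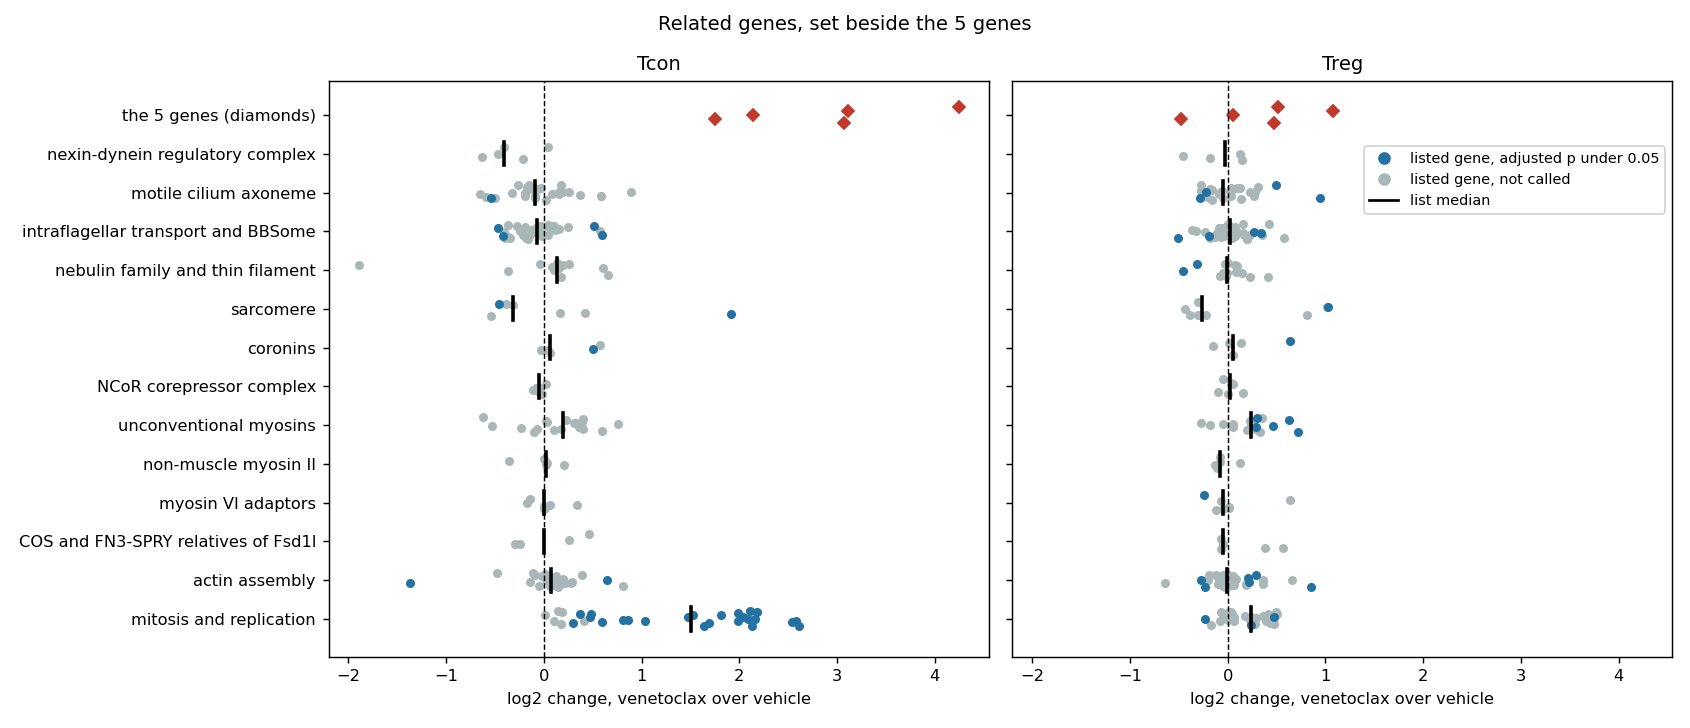
Log2 change, venetoclax over vehicle, of every measured gene of 13 related lists (points, blue where the limma adjusted p is under 0.05) with list medians (bars), beside the 5 genes (diamonds), in Tcon at the left and Treg at the right. In Tcon the medians of the ciliary, muscle and myosin lists lie between -0.41 (nexin-dynein regulatory complex) and 0.20 (unconventional myosins). The mitosis and replication list lies at a median of 1.50.

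The list of mitosis and replication was higher on venetoclax in Tcon, with 24 of 30 genes risen, against 3.92% of all genes. None fell, and the median log2 change was 1.50. The 5 genes were chosen for their Tcon rise, so a direction shared with this list is no finding. Top2a, the topoisomerase of dividing cells, was at 1458 ± 366 normalized counts on venetoclax and 349.5 ± 45.3 on vehicle (SD, n = 4 each, log2 change 2.04, adjusted p = 0.000336 with limma). In Treg 2 of 30 rose and 1 fell (6 and 1 with the replicate number as a block), with a median of 0.24. More cells of a type and more RNA per cell cannot be told apart in bulk samples, and the part of dividing cells in the change of the 5 genes was not tested.

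Summed markers of cells rich in these proteins overlapped between the arms of Tcon. Of 12 skeletal muscle markers 4 were measured (Ttn, Mylpf, Tnnt3 and Actn2), and their sum in Tcon was 16.6 to 22.1 CPM on venetoclax and 20.6 to 25.3 CPM on vehicle. In Treg it was 43.3 to 51.7 CPM on venetoclax and 30.9 to 43.2 CPM on vehicle, with the groups apart. There Ttn was the one called riser, Actn2 fell (log2 change -0.46, adjusted p = 0.0435 with limma), Tnnt3 (-0.44) and Mylpf (-0.31) did not pass, and the list median was -0.37. The part of these markers in the Neb change in Treg was not tested. Creatine kinase Ckm, skeletal actin Acta1 and the muscle myosins Myh1, Myh2 and Myh4 were not among the listed genes. Of 10 markers of ciliated epithelium 4 were measured in Tcon, and their sum was 2.36 to 3.18 CPM on venetoclax and 1.76 to 3.57 CPM on vehicle. Their master regulator Foxj1 was not among the listed genes.

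Regulatory T cell markers summed to 74.4 to 128 CPM in Tcon on venetoclax and 71.9 to 108 CPM in Tcon on vehicle. Among them Il2ra, the IL-2 receptor alpha chain that activated T cells also carry, rose in Tcon (352 ± 75.0 on venetoclax and 176 ± 24.2 on vehicle, SD, n = 4 each, adjusted p = 0.00589 with limma), and Foxp3 did not pass (log2 change 0.07, adjusted p = 0.659 with limma). The CD4 identity genes summed to 3665 to 3921 CPM in Tcon on venetoclax and 3629 to 3845 CPM in Tcon on vehicle. Summed markers of other blood cells overlapped between the arms of Tcon: B cells had 2.13 to 4.56 CPM on venetoclax and 3.58 to 4.18 CPM on vehicle, and plasma cells 40.0 to 65.3 CPM on venetoclax and 51.5 to 65.3 CPM on vehicle. Myeloid cells had 11.3 to 18.4 CPM on venetoclax and 12.0 to 14.9 CPM on vehicle, and dendritic cells 0.696 to 2.60 CPM on venetoclax and 1.18 to 2.52 CPM on vehicle. NK cells had 18.2 to 40.5 CPM on venetoclax and 21.4 to 28.2 CPM on vehicle, and CD8 T cells 15.8 to 18.8 CPM on venetoclax and 16.2 to 22.7 CPM on vehicle. Erythroid cells had 0.546 to 8.70 CPM on venetoclax and 0.421 to 2.43 CPM on vehicle, and stroma 216 to 247 CPM on venetoclax and 238 to 278 CPM on vehicle. In Treg the stromal sum lay apart, at 168 to 190 CPM on venetoclax and 206 to 250.2 CPM on vehicle, led by Pecam1, which T cells also express (log2 change -0.44, adjusted p = 0.000717 with limma).

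Of the 10 nearest measured neighbours, 1 on each side of each gene, 2 rose in Tcon by limma and none fell, against 3.92% and 2.99% of all genes. The 5 genes were selected on their Tcon change, so its size beside that of a neighbour is no finding. Selenoi, 8.9 kb from Drc1, had a log2 change of 0.32 (adjusted p = 0.0182 with limma). Arl5a, 59.2 kb from Neb, had a log2 change of 0.48 (adjusted p = 0.0253 with limma). With the block Trim14, beside Coro2a, passed as well (log2 change 0.49, adjusted p = 0.0338 with limma, against 0.071 without the block). Leaving out 1 library moved the number of neighbours called in Tcon between 0 and 3, with adjusted p of up to 0.0831 for Selenoi and 0.0916 for Arl5a.

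In Treg, 2 of the 10 neighbours rose and 1 fell, against 10.7% and 8.81% of all genes. Arl5a rose beside Neb, with 8253 ± 866 normalized counts on venetoclax and 5036 ± 542 on vehicle (SD, n = 4 each, log2 change 0.71, adjusted p = 0.000201 with limma). Trim14, 0.8 kb from Coro2a, rose (log2 change 0.47, adjusted p = 0.000596 with limma) while Coro2a itself did not pass. Impg1, 1044 bases beyond Myo6, fell with it (14.0 ± 5.93 on venetoclax and 30.1 ± 6.47 on vehicle, SD, n = 4 each, log2 change -1.11, adjusted p = 0.0221 with limma, up to 0.0591 with 1 library left out). In Tcon, where Myo6 was higher, Impg1 had a log2 change of -0.07 and did not pass (adjusted p = 0.935 with limma).

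**Figure D4:**
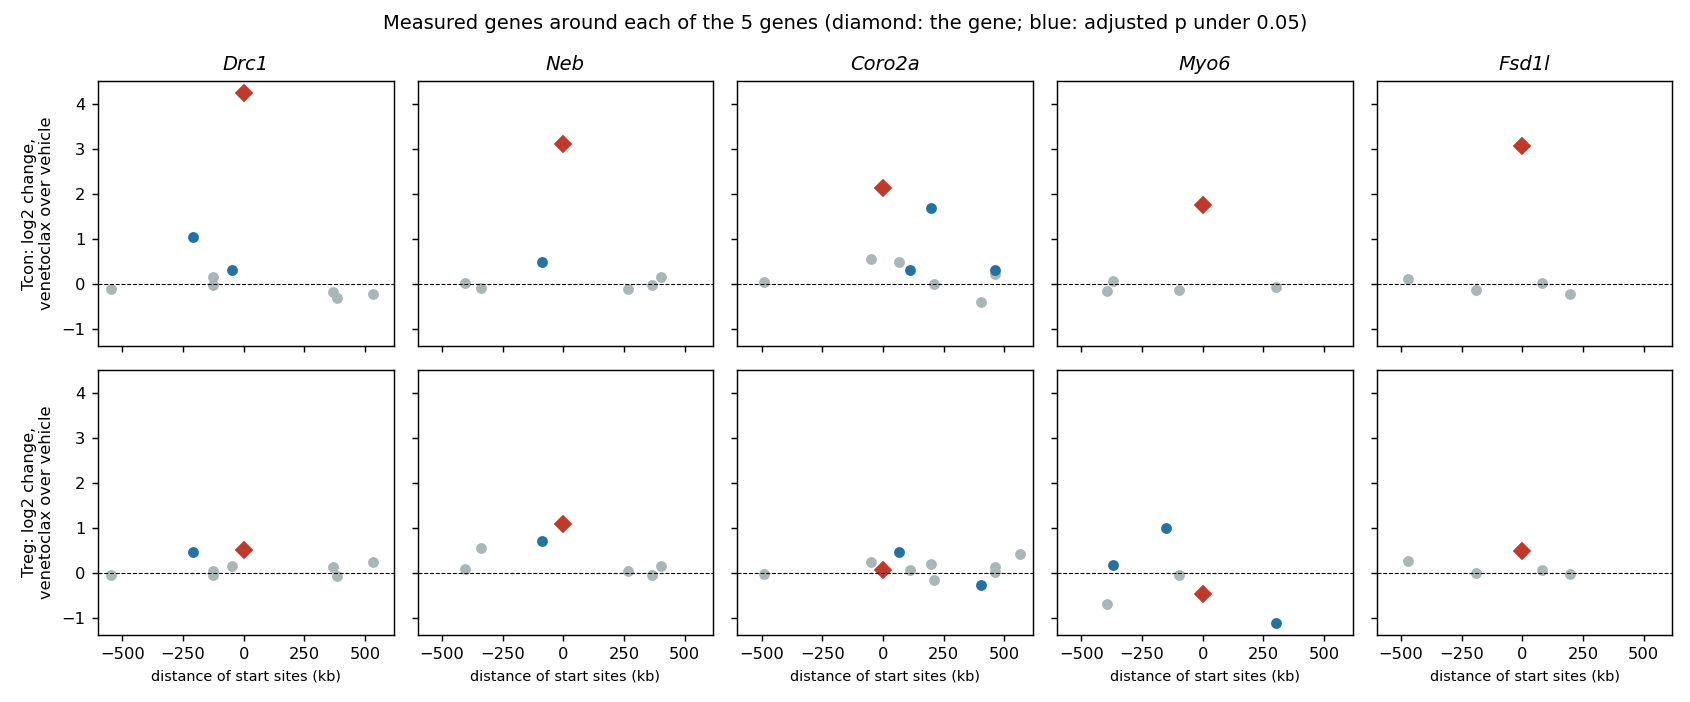
Log2 change, venetoclax over vehicle, of measured genes within 500 kb of each of the 5 genes, against the distance between start sites in kb along the gene's strand, in Tcon (top) and Treg (bottom). Each diamond is one of the 5 genes, and blue points passed an adjusted p of 0.05 with limma. The diamonds in Tcon are high by selection, and the highest other gene there is Hemgn, at 1.69 near Coro2a.

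Within an arm, the 5 genes did not vary as a single block. The correlation of their deviations from group means over the 8 Tcon libraries ran from -0.44 to 0.89 over 10 pairs, with 8 positive. Drc1 went with Myo6 (r = 0.89) and Neb with Coro2a (r = 0.88), while Coro2a and the thinly read Fsd1l ran apart (r = -0.44). In Treg the range was -0.58 to 0.47, with 6 of 10 positive, and Neb and Myo6 ran apart (r = -0.58). These points share libraries and their depth, and no p is given.

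Over all 8 Tcon libraries, the patterns nearest to Drc1 among 9273 genes with a mean of at least 50 were those of Lrrc59 (Pearson r = 0.99), Igfbp4 and Hnrnpm, and Lrrc59 and Igfbp4 were also nearest to Myo6, followed by Jaml. Igfbp4, a binding protein of insulin-like growth factors, was at 35226 normalized counts on venetoclax and 15121 on vehicle. Nearest to Neb were Cdca3, Cish and Pole, and Cish, a target and inhibitor of cytokine signalling, was at 1473 on venetoclax and 369 on vehicle. Nearest to Coro2a were Ralgds, Fkbp5 and Nck2 (r = 0.98 for each), and to Fsd1l Pole2, Nsl1 and Ttc9c (0.96 to 0.97). Over the 8 Treg libraries, among 9597 genes, they were Stk38l, Prmt2 and Mrps12 for Drc1, Fgd6, Dapp1 and Plxnd1 for Neb, and R3hdm2, Antxr2 and Pofut1 for Coro2a. For Myo6 they were Cd55, Thra and Rnf167, and for Fsd1l Sdr42e1, Fam210a and Dgkh. Each of these correlations runs over both arms, so it includes the change with venetoclax, on which the genes were selected in Tcon. Between Coro2a and Fsd1l in Tcon, r was 0.73 over all libraries and -0.44 on deviations from group means. Every other Tcon pair of the selected genes was also lower on deviations. Likeness of the nearest genes within an arm was not tested, and no p is given.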

How the data were processed

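Per the labels' protocols, a NovaSeq sequenced total RNA of 16 sorted CD4+ libraries. The submitters' processing notes name HISAT2, SAMtools and mm10; versions, how reads were counted, and with which annotation and strand setting are not given in those notes. The deposited library columns hold a normalized signal per gene, which from the values is the authors' count divided by 1 size factor per library, and each subset has its own table. All values of every column were whole multiples of 1 step within a tolerance of 0.01, so reads were recovered, and CPM and RPKM (over merged GENCODE exons) were computed from them. The authors' deposited tables also give a log2 fold change and an adjusted p-value. Repeated lines were dropped (40 in Tcon and 43 in Treg), and 18 Treg symbols turned into dates were restored by identifier. Identifiers matched RefSeq (GRCm38.p6) for 11168 Tcon and 11064 Treg genes.

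log2(normalized count + 1) of 4 venetoclax and 4 vehicle libraries was compared per subset with limma 3.58.1 (R 4.3.3, empirical Bayes with a mean trend), without a filter, with Benjamini-Hochberg adjustment over the whole table at 0.05. The script was tested on simulated data. Alternatives were edgeR 4.0.16 (quasi-likelihood), DESeq2 1.42.0 and voom on recovered reads, other scalings and pseudocounts, a mean of at least 50, Ddx3y as a covariate, a replicate block and libraries left out. Libraries of a group differed beyond counting noise (lowest chi-square per degree of freedom 6.41), and their spread limits the precision more than depth does, which need not hold for genes with few reads. Deviations from group means correlated between same-numbered libraries with r of 0.12 to 0.61 in Tcon (4 pairs) and -0.04 to 0.41 in Treg. Tcon venetoclax replicate 1 was nearer to vehicle replicate 2 (0.29) than to vehicle replicate 1 (0.12). Whether the numbers pair libraries is thus not settled, and the block is given as an alternative. The genes, lists, motifs and tests were chosen with earlier results of these data known. The genes named are the 5, up to 4 per list with the smallest p (those in the text are a selection), their nearest measured neighbours and the 3 most alike per subset.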

Additional observations from a re-analysis of the deposited data

Results flagged for a closer look

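Myo6 was singled out because its change pointed in opposite directions in the subsets. In Treg its log2 change was -0.48, every venetoclax library being below every vehicle library, while in Tcon it was 1.76, every venetoclax library being above every vehicle library. The difference between the subsets was not tested, since the Tcon values chose the gene. None of the 20 groups of 4 libraries (5 genes in 4 groups) held a library far from the other 3 by Dixon's criterion at 95%, including Coro2a in venetoclax Tcon.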

How the results depend on the processing

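In Tcon the 5 genes stayed higher on venetoclax in the alternatives run, except that Fsd1l is not in the setting with a mean of at least 50, which keeps 4 of them, and 772 genes of the whole table were called. That count was 1371 with DESeq2, 1880 with the replicate block, 326 with Ddx3y as a covariate, 1443 without replicate 3 of both arms, 116 without venetoclax replicates 1 and 3 (the libraries with partial Ddx3y reads), and 306 to 1244 with 1 library left out, the extremes being without venetoclax replicate 1 and without vehicle replicate 3. It was also moved past 1.5 times by leaving out vehicle replicate 1 (461), vehicle replicate 2 (458) or venetoclax replicate 2 (415). Related genes called in Tcon were 34, and 12 without venetoclax replicates 1 and 3 and 24 to 34 with 1 library left out. In Treg 2164 genes were called, against 1028 without replicate 3 of both arms, 614 without venetoclax replicates 1 and 3, and 1327 (without venetoclax replicate 1) to 2198 with 1 library left out; related genes called were 27, and 14, 11 and 19 to 29 in the same order. Of the 5 genes 4 were called in Treg, but 2 with Ddx3y as a covariate (Neb and Myo6), 2 without replicate 3 of both arms (again Neb and Myo6), 1 without venetoclax replicates 1 and 3 (Neb), and 2 to 4 with 1 library left out. Neb was called in all 20 alternatives, Fsd1l in 17, Myo6 in 15, Drc1 in 14 and Coro2a in none; only the sign of Coro2a turned, its log2 change running from -0.00196 (without venetoclax replicate 2) to 0.12 (without venetoclax replicate 3) with 1 library left out. With the replicate block in Treg 2467 genes were called, and 4 of the 5. Same-numbered Treg libraries did not deviate together in every pair. The adjusted p with limma and the block was 0.00495 for Drc1, 4.53e-06 for Neb, 0.504 for Coro2a, 0.00159 for Myo6 and 0.00872 for Fsd1l. Smaller sets of libraries test with fewer degrees of freedom; beyond that the cause of these shifts was not tested. The orders of Treg and Tcon levels (4 of 5 higher in Treg on vehicle, 3 of 5 on venetoclax) were the same under TMM scaling over all 16 libraries. Among the 5 genes, depth limits chiefly Fsd1l in Tcon, where a count of 0 allows up to 3 reads. Some related and neighbouring genes, such as Tnni3 in Tcon and Impg1 in Treg, rest on few reads too.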

Other observations

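The 5 genes are long. Their spans, exons and introns together, run from 65.0 kb (Coro2a) to 202.2 kb (Neb) and lie between the 79.7th and 96.2nd percentile of Tcon genes. This comparison was chosen after the values were seen. In Treg 14.5% of the 2255 genes of at least 65.0 kb rose and 6.39% fell by limma's adjusted p, while of the 8809 shorter genes 9.77% rose and 9.43% fell. In Tcon 3.35% of 2269 long genes rose and 2.12% fell, while of 8899 shorter genes 4.07% rose and 3.20% fell. The difference between long and short genes was not tested.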
